A study of Triticum aestivum with 3 samples.

Results

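The regions described here are stretches of wheat chromosomes where a peak was called in all 3 libraries of a CUT&Tag experiment, that is, in both replicates and in the mock. They were chosen by the presence of called peaks, by merging peaks of replicate 1 and replicate 2 that overlapped by 1 bp or more, and keeping each merged region that held a peak of both, overlapped a mock peak by 1 bp or more and lay on one of the 21 chromosomes. This gave 744 regions, called mock-shared below, among 7403 merged regions of both replicates in the whole series. On the chromosomes 5664 regions were shared by the replicates, so 13.1% of them held a mock peak, and the other 4920 are called mock-free. A further 702 regions with a mock peak lay on unplaced sequence and were set aside by the rule. Since the presence of a peak in each library chose the regions, their number, widths and heights are descriptions and carry no test.

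The material was bread wheat (Triticum aestivum) seedling protoplasts, which are cells freed of their wall by digestion, transformed with the help of PEG. The stated aim was to locate potential targets of TaSPL6-D, a SBP-box transcription factor. Nuclei received either an anti-GFP antibody or a control IgG, and the labels do not say which of these, or which construct, went with a given library. The cultivar, the promoter and the tag of the construct are not given in the labels. The CUT&Tag group had 2 replicates and the mock group 1 library, whose title also calls it input. Nothing states that the replicates came from separate preparations, so differences between them may be technical.

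In CUT&Tag an antibody holds a transposase at chromatin, and the enzyme cuts and tags the DNA beside it. Some DNA is tagged without that guidance, mostly where chromatin is open, and sequences that occur in many copies also gather reads wherever an assembly holds only some of the copies. In plants such sequences include ribosomal RNA genes, which lie in long tandem arrays, satellite repeats, and pieces of plastid and mitochondrial DNA that have been copied into the nuclear chromosomes. A control library is commonly used to mark such places. These statements are background and were not tested on these peak lists.

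Depth differed between the libraries. The deposited values correspond to 41.2 (replicate 1), 29.6 (replicate 2) and 18.5 (mock) fragments per 10000 bp of genome. Relative to replicate 1 this is 0.718 for replicate 2 and 0.449 for the mock. The lowest background of a peak was 0.643, 0.49 and 0.36 fragments in the same order, which is less unequal. Comparisons below with the ratio of depths rest on the fragments per 10000 bp alone, and another measure would move the counts above and below it. Heights below are whole numbers of fragments at the peak summit, recovered from the deposited fold and −log10 p, and folds are the authors' deposited values for each peak. For each library the tallest peak overlapping a region was taken. A mock summit could thus lie outside its region, and 1 mock peak could serve more than 1 region.

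The mock-shared regions took up most of what the mock found on the chromosomes. Of 973 mock peaks there, 769 (79%) lay in a mock-shared region and 204 did not. The median height was 19 fragments for the mock peaks inside and 10 for those outside. A mock peak covered a median of 300 bp of its region. The smallest overlaps were 11 bp on chromosome 2A (89602206 to 89602932), 16 bp on 2D (199148150 to 199148439) and 19 bp on 1D (395748297 to 395749147), and only 6 regions had an overlap under 50 bp. Just outside the rule, a region on 5D (567843426 to 567843663), with 40 and 37 fragments in the replicates, ended 8 bp from a mock peak. The next nearest were 94 bp away on 7B and 129 bp away on 2A. At the calling limit, the weakest mock peaks inside had 5 fragments and a −log10 q of 1.34, for instance on 5B (627043783 to 627044020), where the replicates had 10 and 9 fragments.

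Whether a shared region held a mock peak went with its height in replicate 1. Of 1438 shared regions with 9 or fewer fragments, 9 did (0.626%, Wilson 95% interval 0.33 to 1.19%). From 15 to 24 fragments it was 100 of 966 (10.4%, 8.59 to 12.4%), and from 50 to 99 it was 181 of 352 (51.4%, 46.2 to 56.6%). From 200 fragments upward it was 60 of 72 (83.3%, 73.1 to 90.2%). Tall places in the replicates were thus mostly places that the mock also called, while 12 of the 72 tallest were not. The mock had 0.449 of the depth of replicate 1, and its weakest peaks in these regions had 5 fragments. Low regions could therefore seldom hold a mock peak, and the rise with height is partly set by calling. Wilson intervals here take regions as independent and cover counting error only.

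The B subgenome held the largest share of the mock-shared regions, with 311 (41.8%, Wilson 38.3 to 45.4%), beside 36.9% of the assembled length and 37.8% of the mock-free regions. The A subgenome had 206 (27.7%, 24.6 to 31%), beside 35% of the length and 32.7% of the mock-free regions. The D subgenome had 227 (30.5%, 27.3 to 33.9%), beside 28.1% of the length and 29.5% of the mock-free regions. Over all mock-shared regions this is 4.14 regions per 100 Mb on A, 5.93 on B and 5.67 on D. Of the regions with at least 50 fragments in replicate 1, 89 lay on A, 163 on B and 77 on D. B thus stood further above D among tall regions. Within each of the 7 homoeologous groups, the sets of related A, B and D chromosomes, the A chromosome had the lowest density, and in 6 of 7 the B chromosome held the most regions. The mock-free regions were spread more evenly, at 32.4, 35.4 and 36.2 per 100 Mb. With 1 region counted per cluster the shares were 29.3% on A (25.8 to 33%), 38.9% on B (35.1 to 42.8%) and 31.9% on D (28.3 to 35.7%). The B interval then covered both its share of the length and its share of the mock-free regions, which were not counted by cluster. The A interval stayed below A's share of the length.

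**Figure D1:**
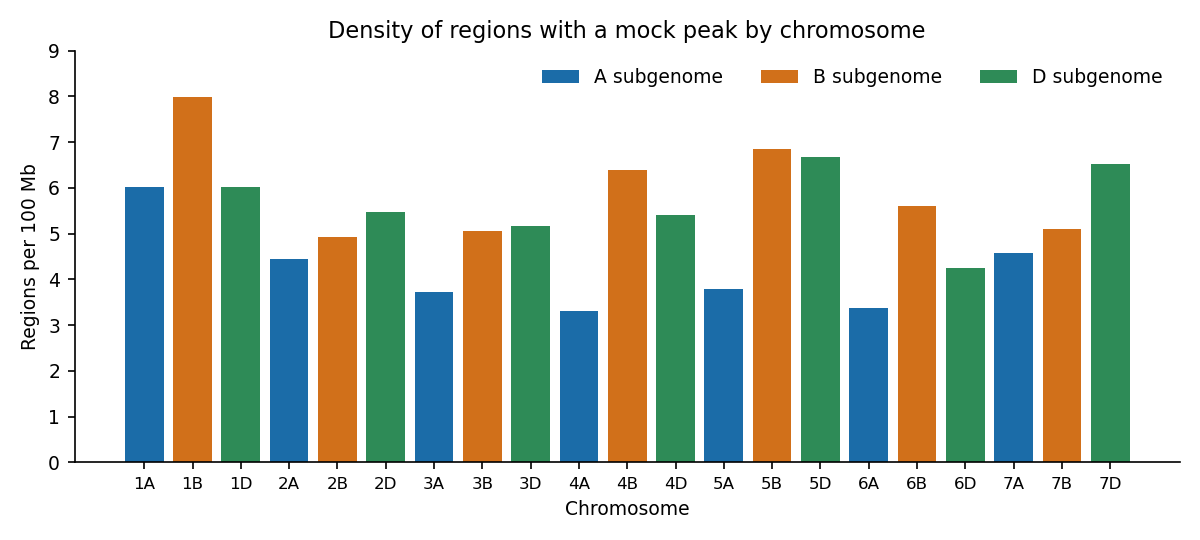
Mock-shared regions per 100 Mb on each of the 21 chromosomes, coloured by subgenome, with chromosomes of a homoeologous group side by side. Chromosome 1B stands highest at 7.99 and 4A lowest at 3.32, and in each group the A bar is the lowest.

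By chromosome the density ran from 3.32 per 100 Mb on 4A (25 regions) to 7.99 on 1B (56 regions). Chromosome 5B followed with 6.85 and 49 regions, then 5D with 6.67 and 38, and 7D with 6.53 and 42. Chromosome 1B was also high among mock-free regions, at 43.7 per 100 Mb, and 5D was the highest there at 48.6. The share of shared regions with a mock peak was 10% on 5A, the lowest, and 16% on both 5B and 7D. The regions of 1B were tall, with medians of 76, 49.5 and 23 fragments in replicate 1, replicate 2 and the mock, against 45, 33 and 19 over all mock-shared regions. They were not spread evenly, since the fullest windows of 1 Mb on 1B held 10 and 9 of the 56. An rRNA gene lay within 2000 bp of 17 of them, whose median in replicate 1 was 190 fragments.

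Along the chromosomes the mock-shared regions were more frequent near the ends than an even spread over the length would give. The middle stood above the stretches beside it, at about its share of the length. The outer 10% at each end held 211 of 744 (28.4%, Wilson 25.2 to 31.7%). For mock-free regions it was 26% (24.8 to 27.2%), and for protein-coding genes 36.3%. At 50 or more fragments in replicate 1 the ends held 21.9% (17.8 to 26.7%) of the mock-shared and 26.9% (21.5 to 33.1%) of the mock-free regions, so the order turned with height and the intervals overlapped. The interval of these tall mock-shared regions took in the ends' share of the length, so the excess at the ends was not seen at that height. From 30 to 60% of the length, a span chosen after the values were seen, lay 229 (30.8%, 27.6 to 34.2%). An even spread over the length would give about as many. It was 23.3% for mock-free regions (22.1 to 24.5%) and 13.9% for protein-coding genes. Among regions of at least 50 fragments in replicate 1 the middle held 35% (30 to 40.3%) of the mock-shared and 29.6% (24 to 35.9%) of the mock-free ones, so these intervals overlapped. Since mock-shared regions are taller as a set, the part of height in this difference was not tested otherwise.

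**Figure D2:**
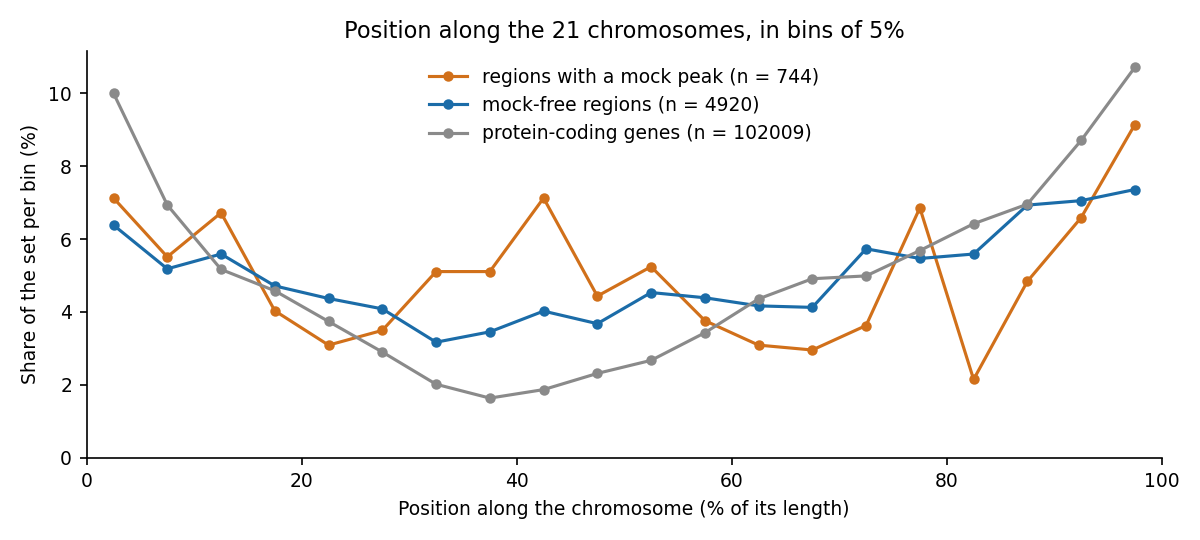
Share of each set per bin of 5% of the chromosome length, over all 21 chromosomes, for mock-shared regions, mock-free regions and protein-coding genes. The mock-shared line reaches 7.12% from 40 to 45% of the length, where protein-coding genes are at 1.87%, and 9.14% in the last bin.

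Single bins were uneven. From 40 to 45% of the length lay 53 mock-shared regions (7.12%), from 75 to 80% lay 51 (6.86%), and from 80 to 85% only 16 (2.15%). The last bin held the most, 68 (9.14%). Counted in windows of 1 Mb, 552 of 14234 windows held a mock-shared region, and 446 of these held a single one. Another 40 windows held 3 or more and together 166 regions. The fullest windows were on 1B from 551000001 to 552000000 and on 4B from 291000001 to 292000000, with 10 regions each. Next was 1B from 86000001 to 87000000, with 9 regions and 21 mock-free ones, and 5D from 506000001 to 507000000, with 7 and 21.

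Most mock-shared regions stood alone. With neighbours linked across gaps of up to 10 kb, 524 were single and 220 fell into 91 clusters (29.6%, Wilson 26.4 to 33%). For mock-free regions the share in clusters was 25% (23.8 to 26.3%). Among regions of at least 50 fragments it was 37.1% (32 to 42.4%) for mock-shared and 48% (41.5 to 54.5%) for mock-free ones. The order of both sets thus turned with height, and no test was made. The B subgenome had 41 clusters, D 27 and A 23. Of the 91 clusters, 73 were pairs, and the median span was 4.3 kb. Mock-free regions were also close by: 281 mock-shared regions (37.8%) had one within 10 kb.

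Clustered regions differed from single ones in height, local background and fold. Their median height in replicate 1 was 82 fragments (quartiles 39 to 147), against 41 (26 to 65) for single regions. Their local background in replicate 1 was a median of 12.8 times the lowest of that library, against 2.65 times for single regions. In the mock these figures were 11 and 1.95 times. The deposited folds went the other way, with medians of 7.01 for clustered and 13.9 for single regions in replicate 1, and of 6.04 and 8.37 in the mock. The background is measured over a stretch that holds the peak and its neighbours, so neighbouring peaks raise it by construction. Mock over replicate 1 fragments were alike, with medians of 0.36 for clustered and 0.37 for single regions.

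The longest cluster lay on 1B from 551328942 to 551366647, a stretch of 37.7 kb with 10 mock-shared and 7 mock-free regions, and 12 rRNA genes of the RefSeq table lay in it or within 10 kb. Ribosomal RNA genes encode the RNA core of the ribosome and occur in tandem arrays. Heights there were 112 to 685 fragments (replicate 1), 71 to 538 (replicate 2) and 22 to 381 (mock). The first region had 586, 486 and 381 fragments in replicate 1, replicate 2 and the mock, while its neighbour had 233, 173 and 34. The mock was thus not in a fixed proportion to the replicates along this stretch: mock over replicate 1 ran from 0.146 to 0.65.

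The cluster on 4B from 291471914 to 291497404 had 10 regions across 25.5 kb, with LOC123094785 as the only protein-coding gene within 10 kb. Its heights were 127 to 465 fragments (replicate 1), 93 to 394 (replicate 2) and 41 to 170 (mock). Mock over replicate 1 stayed between 0.235 and 0.375. On 6B from 384502326 to 384515908, 6 regions had 394 to 660, 306 to 721 and 113 to 191 fragments, and mock over replicate 1 stayed between 0.25 and 0.289. All 6 lay above 164 fragments, the 90th percentile of mock-shared regions in replicate 1, with local backgrounds of 40.7 to 97.6 fragments in replicate 1 and folds of only 4.58 to 12.3.

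Smaller clusters held other levels. On 3B from 801690399 to 801710700, 4 regions had 16 to 38 fragments in replicate 1 and 11 to 26 in the mock, so that mock over replicate 1 was 0.63 to 0.72, and no gene of any kind lay within 10 kb. On 7A from 388987502 to 389002474, 4 regions had 76 to 330 and 16 to 83 fragments, with 0.163 to 0.252. The ranges of mock over replicate 1 of these clusters did not overlap, while their mock heights did.

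**Figure D3:**
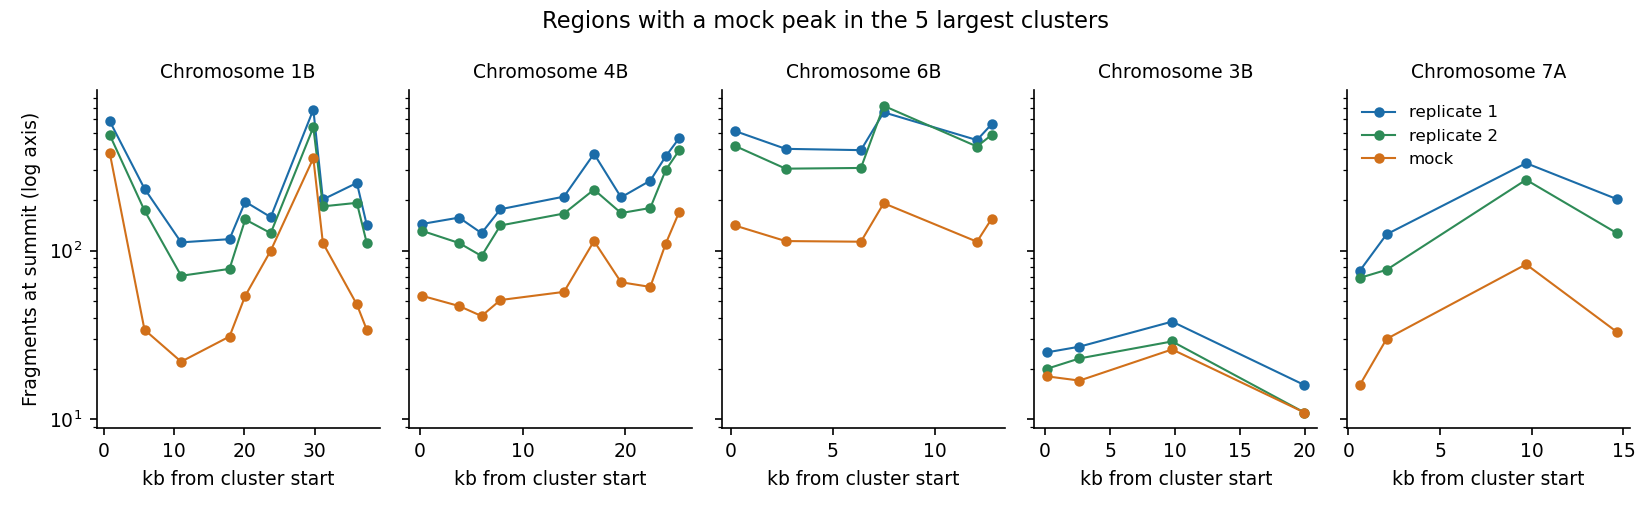
Fragments at the summit (log axis) of each mock-shared region in the 5 largest clusters, against its distance in kb from the cluster's start, for replicate 1, replicate 2 and the mock. On 4B and 6B the mock line follows the replicates at a near constant distance, on 1B the distance changes from region to region, and on 3B the 3 lines lie close together.

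Neighbours resembled each other in mock over replicate 1. Between neighbouring regions at most 10 kb apart the median difference in its log2 was 0.31 (129 pairs), between 10 kb and 1 Mb it was 0.42 (76 pairs), and over 1 Mb it was 0.79 (518 pairs). Among pairs in which both regions had at least 50 fragments the figures were 0.27, 0.32 and 0.58. For replicate 2 over replicate 1 the medians were 0.18, 0.20 and 0.32, so closeness also went with smaller differences between the replicates. The pooled SD of log2 mock over replicate 1 was 0.50 within clusters and 0.85 over all mock-shared regions. These are descriptions of 3 libraries, and neighbouring regions share their local sequence and background. Some close neighbours also took the same mock peak, so their mock heights were equal by construction. These pairs were not set apart.

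Mock-shared regions were wide. Their median width was 493.5 bp (quartiles 352 to 740), against 315 bp (234 to 449) for mock-free regions. Wider than 1000 bp were 94 (12.6%), against 65 mock-free regions (1.32%). A wider region has more room to overlap a mock peak, so the rule itself favours wide regions. At 50 or more fragments the medians were 568 and 345 bp. Within mock-shared regions the peaks had median widths of 479 bp (replicate 1), 423.5 bp (replicate 2) and 310.5 bp (mock), in the order of depth. Nearly all were single peaks: 5 regions held more than 1 replicate 1 peak, 23 more than 1 replicate 2 peak and 26 more than 1 mock peak.

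The widest region, 3888 bp on 1A from 584006468 to 584010355, held 1 peak of replicate 1, 2 of replicate 2 and 4 of the mock. It had 383, 286 and 93 fragments in replicate 1, replicate 2 and the mock, and LOC123069880, a protein-coding gene, lay within 2000 bp of its summit. The second, 3553 bp from 584023532 to 584027084 on the same chromosome, had 522, 340 and 106 fragments on a background of 107 fragments in replicate 1, the highest of all mock-shared regions. The next, on 7D (75818901 to 75821832, 2932 bp) and on 6B (129552451 to 129555317, 2867 bp), both lay at rRNA genes, with 274, 209 and 53 fragments and with 254, 176 and 38. The fifth, 2646 bp on 2A from 47893536 to 47896181, had 342, 285 and 81 fragments and no gene within 2000 bp.

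Replicate 1 heights spanned 6 to 770 fragments (median 45, quartiles 28 to 85), those of replicate 2 spanned 6 to 721 (33, 20 to 62), and mock heights 5 to 404 (19, 12 to 31). Replicate 2 over replicate 1 had a median of 0.74 (quartiles 0.632 to 0.829), beside a ratio of depths of 0.718, and 698 of 744 regions lay within 1.5 times of that ratio. Mock over replicate 1 had a median of 0.367 (0.26 to 0.563), beside a ratio of depths of 0.449, and 350 regions lay within 1.5 times of it. The mock therefore spread more widely about its depth than replicate 2 did. Spearman's rho of heights across the 744 regions was 0.953 between replicates, 0.641 between replicate 1 and the mock and 0.705 between replicate 2 and the mock. All regions of a library share its depth, and low mock peaks are missing by the rule.

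**Figure D4:**
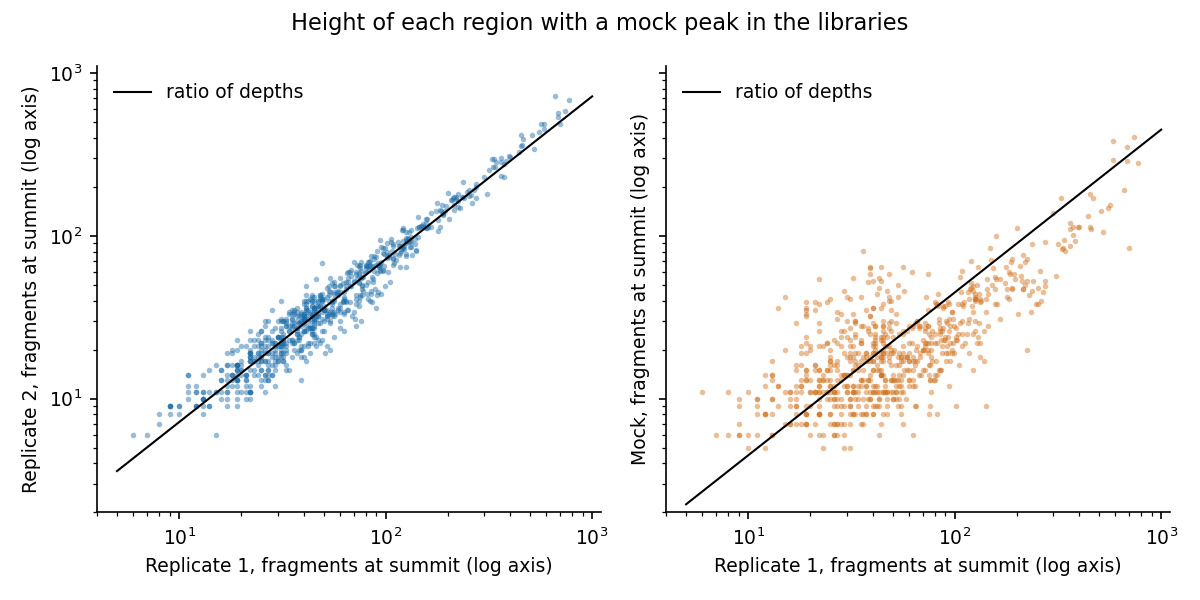
Fragments at the summit of each of the 744 mock-shared regions (log axes), with replicate 1 on the x axis and replicate 2 (left) or the mock (right) on the y axis; the line is the ratio of depths. Replicate 2 follows the line, while the mock lies below it for most regions above 50 fragments and on both sides of it for lower ones.

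Tall regions mostly lay below the ratio of depths in the mock. Of 329 mock-shared regions with at least 50 fragments in replicate 1, 294 lay below the ratio of depths and 35 above it, with a median of 0.279 (quartiles 0.217 to 0.351). In the same regions replicate 2 over replicate 1 had a median of 0.729. From 25 to 49 fragments the median of mock over replicate 1 was 0.432, and from 15 to 24 it was 0.625, where a mock peak needs at least 5 fragments to be called at all. Even so, 52 regions (6.99%) had more fragments in the mock than in the deeper replicate 1. Some of them shared a mock peak. On 1D from 208781883 to 208783210, both regions of a pair took 1 mock peak of 33 fragments, beside 19 and 32 in replicate 1. The deposited fold was higher in the mock than in replicate 1 for 113 regions. Summits coincided closely, with 410 mock summits and 567 replicate 2 summits within 50 bp of the replicate 1 summit. The median distance was 42 bp for the mock and 12 bp for replicate 2.

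Mock over replicate 1 differed by subgenome. Its median was 0.333 on A, 0.344 on B and 0.441 on D, and 111 of 227 D regions (48.9%) lay above the ratio of depths, against 32% on A and 33.4% on B. The D chromosome had a higher median than its A partner in 6 of 7 homoeologous groups and a higher one than its B partner in 7 of 7. Chromosome medians ran from 0.287 on 6B to 0.617 on 1D. Without regions that had a plastid-type tRNA or rRNA gene within 10 kb, the medians were 0.317, 0.338 and 0.386. Among regions of at least 50 fragments they were 0.252, 0.283 and 0.316. D remained highest in these subsets by smaller amounts, and no test was made. By position, the median was 0.421 in the outer 10% at the ends and 0.313 from 30 to 60% of the length, the span chosen after the values were seen. The mock median was 18 fragments in both zones, and that of replicate 1 was 40 at the ends and 50 in the middle. A protein-coding gene was near 18% and 10.9% of these regions. The part of height or genes in this difference was not tested.

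Neighbouring genes come from RefSeq's table for IWGSC CS RefSeq v2.1, a wheat assembly. No gene of any kind lay within 2000 bp of the summit for 528 mock-shared regions (71%). A protein-coding gene lay that close for 91 (12.2%, Wilson 10.1 to 14.8%), and 54 of these summits were inside the gene. Among mock-free regions it was 53.6% (52.2 to 55%). Height moved with this difference: at 50 or more fragments a protein-coding gene was close for 36 of 329 mock-shared regions (10.9%, 8.01 to 14.8%) and for 34 of 223 mock-free regions (15.2%, 11.1 to 20.6%), and these intervals overlapped. In all, 88 protein-coding genes lay within 2000 bp of a summit. Only 1 of these has a synonym in the table: LOC100049018, on 2D, carries rbcl, a name used for Rubisco's large subunit, which plastids encode. It was singled out after its values were seen.

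Transfer RNA genes near mock-shared regions were of the kinds that plastids carry. Transfer RNAs bring amino acids to the ribosome, and plastids encode their own set. A tRNA gene lay within 2000 bp of 57 regions (7.66%, Wilson 5.96 to 9.8%), against 124 of 4920 mock-free regions (2.52%, 2.12 to 3%). At 50 or more fragments the shares were 5.47% (3.49 to 8.48%) and 7.62% (4.81 to 11.9%), so the order turned there, and both intervals were wide. All 72 tRNA genes near mock-shared regions had 1 of the 29 anticodons found in grass plastids, against 62.5% of the 3411 tRNA genes on the chromosomes. Mock-free regions were alike in this: of 124 with a tRNA gene within 2000 bp, 122 had a plastid-type one. Some nuclear tRNA genes share these anticodons, so the anticodon alone does not tell where a gene came from.

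The tRNA genes fell into 16 kinds. TRNAN-GUU (asparagine) gave 14 genes and TRNAR-ACG (arginine) 13, and 13 regions had both within 2000 bp. The genes trnN-GUU and trnR-ACG are neighbours in the inverted repeat of the plastid genome. TRNAM-CAU gave 10, TRNAS-UGA 6 and TRNAR-UCU 5. TRNAT-GGU gave only 2 genes near 3 regions, but the chromosomes hold only 12 such genes. The regions lay on 15 of the chromosomes, with 8 on 2A and 6 each on 3B and 5D, and 30 of the 57 on the D subgenome.

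Ribosomal RNA genes were near fewer but taller regions. They lay within 2000 bp of 31 mock-shared regions (4.17%, Wilson 2.95 to 5.85%) and of 80 mock-free regions (1.63%, 1.31 to 2.02%). At 50 or more fragments the shares were 8.51% (5.95 to 12%) and 18.8% (14.3 to 24.5%), so that tall mock-free regions lay at rRNA genes more often. The 31 regions were on 5 chromosomes: 17 on 1B, 4 each on 1A, 6B and 7D, and 2 on 5A. Of 57 rRNA genes involved, 32 were 119 to 156 bp long, 14 were 1802 to 1811 bp and 10 were 3350 to 3408 bp, and the remaining gene was 3319 bp. With 1 region counted per cluster the share was 2.44%, and 21 of the 31 were in clusters.

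Other gene kinds were rare or at like levels. Pseudogenes lay near 5.91% of mock-shared regions and 5.45% of mock-free ones, and long non-coding RNA genes near 3.9% and 4.55%. No snRNA or snoRNA gene lay within 2000 bp of a mock-shared region, which allows a share of up to 0.514% at the upper Wilson limit. Among mock-free regions it was 0.183% for snRNA genes and 0.0407% for snoRNA genes, both under that limit, so a difference was not detectable with 744 regions.

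The proportion of mock signal differed by neighbouring gene. For the 31 regions at rRNA genes the medians were 189, 137 and 38 fragments in replicate 1, replicate 2 and the mock, and mock over replicate 1 was 0.249 (quartiles 0.181 to 0.341). For the 57 at plastid-type tRNA genes they were 42, 33 and 24 fragments, with 0.528 (0.361 to 1). For the 75 at a protein-coding gene but neither of these they were 45, 34 and 28, with 0.5 (0.314 to 0.877). For the 528 with no gene close by they were 44, 31 and 16.5, with 0.348 (0.255 to 0.513). Regions at tRNA and protein-coding genes thus had like heights to those without genes in the replicates and more fragments in the mock. The quartile range at rRNA genes lay below that at plastid-type tRNA genes without overlap and overlapped those of the other kinds. Heights differed, however: 28 of the 31 regions at rRNA genes had at least 50 fragments in replicate 1, against 18 of the 57 at tRNA genes. Among these tall regions the 2 quartile ranges overlapped, at 0.171 to 0.324 and 0.297 to 0.454.

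**Figure D5:**
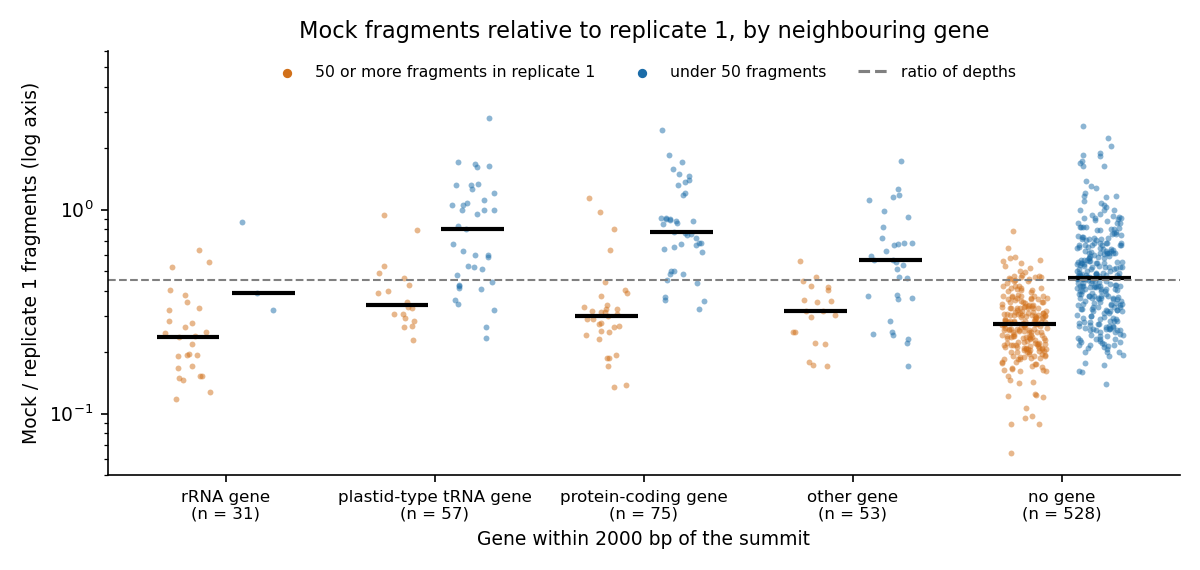
Mock over replicate 1 fragments (log axis) of each mock-shared region, by the gene within 2000 bp of its summit (each region in the first kind that holds, from left to right), for regions of 50 or more and under 50 fragments in replicate 1; bars are medians and the dashed line is the ratio of depths, 0.449. Under 50 fragments the medians at plastid-type tRNA and protein-coding genes are 0.8 and 0.774, against 0.462 with no gene.

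The differences between kinds were larger among low regions than among tall ones. Under 50 fragments the medians were 0.8 at plastid-type tRNA genes (39 regions), 0.774 at protein-coding genes (42) and 0.462 with no gene (298). At 50 or more they were 0.342 (18), 0.299 (33) and 0.273 (230), and 0.238 at rRNA genes (28). Of the 42 low regions at protein-coding genes 37 lay above the ratio of depths, as did 29 of the 39 at tRNA genes and 157 of the 298 with no gene. Both gene types often lay close together: of the 91 regions with a protein-coding gene within 2000 bp, 38 had a plastid-type tRNA gene within 10 kb, and 16 of these had it within 2000 bp. Local background in the mock also moved with these kinds, at a median of 10.7 times the lowest of the library at tRNA genes, 6.87 times at protein-coding genes and 2.16 times with no gene; its part in the result was not tested.

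The 10 regions ranked highest by fold over the 3 libraries were all single regions. Neighbouring peaks raise the local background that the fold divides by, so this ranking itself favours single regions. The first, on 3B from 580347045 to 580347427, had 337, 263 and 94 fragments in replicate 1, replicate 2 and the mock, and folds of 45.1, 41.7 and 29.7. The second, on 3D from 478833507 to 478834001, had 238, 215 and 89 fragments and folds of 44.9, 43.1 and 29.5. The third, on 6B from 594222496 to 594223196, had 685, 564 and 289 fragments and folds of 40.2, 39.9 and 35.1, the highest fold of the mock among mock-shared regions. None of the 10 had a gene within 2000 bp.

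Among these 10, the libraries did not keep 1 proportion. A region near the start of 1A, from 227106 to 227351, had 698, 488 and 84 fragments, so the mock was at 0.12 of replicate 1, and the nearest gene was LOC123073813, a rRNA gene. A region on 1B from 202310784 to 202311334 had 739, 583 and 404 fragments, or 0.547, and its mock height was the highest of all. On 6D from 1155104 to 1155671 the heights were 149, 115 and 84, or 0.564. The others lay on 6A, 5B, 1B and 3A, with 0.185, 0.229, 0.465 and 0.254.

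The regions highest in the mock relative to replicate 1 were low in both replicates. On 2A from 58684073 to 58684403 the heights were 15, 11 and 42 fragments, or 2.8 times, with the summit in a TRNAC-GCA gene. On 2D from 199148150 to 199148439 they were 14, 11 and 36, though the mock peak there overlapped the region by only 16 bp. On 3A from 105931509 to 105932008 they were 22, 17 and 54, at LOC123060534, a long non-coding RNA gene, and close to LOC123060532, a protein-coding gene. On 1A from 243346745 to 243347855 they were 36, 28 and 81, with no gene close by, and on 4A from 543271030 to 543271284 they were 19, 16 and 39. In all 5 the mock peak stood above both replicates in spite of the mock's lower depth. On 2D and 4A the other region of the cluster had the same mock height, 36 and 39 fragments, and the same mock background.

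At the other end were regions with few mock fragments beside the number in replicate 1. On 7B from 51838611 to 51839153 the heights were 141, 82 and 9 fragments, with folds of 32.1, 26.3 and 7.35. On 5B from 575642304 to 575642692 they were 101, 80 and 9. At the very end of 1B, from 700442862 to 700443526, they were 224, 164 and 20. On 2A (556354500 to 556354843) they were 63, 33 and 6, and on 3A (346634348 to 346634835) 82, 52 and 8. All 5 had mock over replicate 1 under 0.1 and no gene within 2000 bp. The mock heights of 4 of them were below the median of 19 fragments, and that of the 1B region was just above it.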

How the data were processed

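The authors deposited 1 narrowPeak list per library. Base calls were converted with bcl2fastq 2.17, reads handled with Trimmomatic 0.39, and MACS2 2.2.7.1 was used, per the submitters' processing notes. No source used here names the aligner, the build or the options of the peak caller. The deposited fold enrichment is a linear ratio with 1 added to the summit and the background. The deposited −log10 p and −log10 q are the peak caller's. The deposited score was not used.

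Fold and −log10 p together gave a whole number of fragments and a background for 100% of peaks in each list (relative tolerance 1e-04). The solution was right for 100% of 1850 simulated peaks. Depth came from the lowest background and its steps. Counts rest on fragments without molecular identifiers.

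The lists name no build. As a check of the join, 18.6% of replicate 1 summits were at most 500 bp from the edge of a gene that codes for protein, and 7.41% after a move of 2000 bp. For the mock-shared regions alone the values were 3.23% and 2.96%, so the check rests on the whole list. Chromosome length is the last gene or peak end. Peak coordinates count from 1. A summit is that of the tallest replicate 1 peak in a region.

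Regions named are the 10 highest by mean fold rank, the 5 clusters with most regions (ties by span), the 5 widest and the 5 at each end of mock over replicate 1. The regions, lists and rules were chosen with earlier results of these data known. Python 3.11.15, numpy 2.4.6, pandas 2.3.3 and scipy 1.17.1 were used. Peak lists give no sequence, and TaSPL6-D itself was not analysed here.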

Additional observations from a re-analysis of the deposited data

How the results depend on the processing

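The alternatives gave 111 values, of which 79 stayed within the 95% binomial interval of the reported share or median, or within 1.5 times of the reported count, and 32 did not. With each replicate list cut to as many peaks as the mock has, 439 regions were found, the D share was 26%, 23.7% lay in the outer 10% of the ends and 24.6% in clusters. Their median width was 528 bp, their heights 74, 50 and 22 fragments, and mock over replicate 1 was 0.295. Protein-coding genes were near 9.11%, tRNA genes near 4.78% and pseudogenes near 4.33%. The D share thus fell below the 28.1% of length that D holds. Peaks of −log10 q of at least 5 gave heights of 50, 37 and 21 fragments and 5.91% near tRNA genes. Without replicate 1 or 2 the median width was 422.5 to 455.5 bp, over 752 to 804 regions. Linking at 2 and 50 kb put 17.3% and 37% in clusters, and ends of 5 and 20% held 16.3% and 46.1%, by construction. Gene windows of 500 and 5000 bp gave 8.6% and 19.5% at protein-coding genes. A window of 10000 bp gave 14.5% near tRNA genes, 11% near pseudogenes and 8.47% near long non-coding RNA genes. At 50 or more fragments, mock over replicate 1 was 0.279. Choices made after seeing the data were this height for genes, with 5.47% near tRNA, 8.51% near rRNA genes and 3.95% near pseudogenes, and 1 region per cluster, with 2.44% near rRNA genes. Where no construction is named, the cause was not tested. Mock calls from 5 fragments upward limit what the shallow mock can show among low regions. No paired analysis was possible because 1 mock library cannot pair with 2 replicates.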
